A study of Mus musculus with 16 samples.

Results

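Of the 30622 3′-UTR regions with a gene symbol that were counted in CPEB4 RNA immunoprecipitates of mouse macrophages, 2442 (7.97%) were 2000 or more bases long and carried no predicted arrangement of cytoplasmic polyadenylation elements (CPEs). They were taken by 2 deposited annotations only, the width of the region and an empty prediction, and no read count was used to choose them. They belonged to 1780 genes and measured 2000 to 10476 bases, with a median of 2721 bases. Some entries are alternative annotations of 1 gene: 561 of the 2442 shared their coordinates with another of them, so that 2120 distinct stretches were measured and the regions are not independent of one another. The question put to them was whether the recovery of a long 3′-UTR with CPEB4 goes with its length or with its CPEs.

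The cells were bone marrow-derived macrophages (BMDMs) from adult mice of the labelled strain C57BL/6J 129, grown with L-cell conditioned medium as the source of M-CSF. One culture was wild type (WT, numbered 76) and the other came from a mouse lacking CPEB4 in the whole body (KO, numbered 73). Each culture was left untreated or given lipopolysaccharide (LPS, 10 ng/ml) for 9 h, and each of these gave a RIP library, recovered with an antibody to CPEB4 after formaldehyde crosslinking and sonication, and an rRNA-depleted Input library. The 16 deposited samples are thus 8 libraries, each run on 2 lanes that the deposited tables hold as 1 column. Every group had 1 library, so no difference between groups has a replicate check, no test was possible, and the intervals given below cover counting error or the spread among regions only. Genotype cannot be told apart from culture. The KO RIP is the control for RNA recovered without CPEB4, and whether any part of the protein is left in the KO was not tested here.

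CPEB proteins bind CPEs in the 3′-UTRs of mRNAs and, with the polyadenylation hexamer AATAAA or ATTAAA, control poly(A) tail length and translation in the cytoplasm. The prediction deposited with the counts asks for an arrangement, not for a motif: CPEs close together for repression, or a CPE close to the hexamer for activation. The canonical CPE letters are TTTTAT and TTTTAAT, and those called non-canonical are TTTTACT, TTTTAAAT, TTTTAAGT and TTTTCAT (T is U in the mRNA). Macrophages use 3′-UTR elements of this kind, together with AU-rich elements, to set how long the mRNAs of the LPS response last.

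The regions without a prediction were therefore not free of CPEs, and the letters below show what the prediction did and did not accept. The first 4 stretches are the last canonical CPE of the members Tob2 (chr15:81848832-81848861, minus strand), Spcs2 (chr7:99838989-99839018, minus), Nrp1 (chr8:128505276-128505305, plus) and Arl5a (chr2:52399290-52399319, minus), which stood among the highest of the ratios described further on; each is read 5′ to 3′ on the strand of the mRNA in mm10, with the CPE in capitals.
Tob2: agaagaacttttTTTTATtttttacatttt
Spcs2: ggcattttttagTTTTATattctctgtttt
Nrp1: ttttacagaaatTTTTATtttctatgatga
Arl5a: aactttggggtTTTTAATtgcccttggtat
The next 3 are the last 30 bases of the members Rrp7a (chr15:83113433-83113462, minus), Spn (chr7:127133702-127133731, minus) and Eme2 (chr17:24888486-24888515, minus), which stood among the lowest; here the capitals mark the polyadenylation hexamer where there was one.
Rrp7a: cagctggcttagcccatttggaaatgttcc
Spn: acacAATAAAtgtctctaatttcacagtta
Eme2: cccacacacAATAAActgtctcacgtccaa
For comparison, the long 3′-UTRs of Tnfrsf1b (chr4:145213463-145213492, minus) and Mtpn (chr6:35508950-35508979, minus) carry the paired CPEs that gave them a prediction, both in capitals.
Tnfrsf1b: aaataaattgaTTTTATcTTTTAATcatta
Mtpn: ttgagaTTTTAATaccaTTTTATcctactt
The paired CPEs of Tnfrsf1b lie 1 base apart and those of Mtpn 4 bases apart. In Tob2, Spcs2 and Arl5a the CPEs were scattered. The 4 of Tob2 lay 1046, 82 and 538 bases from one another, the 2 of Spcs2 were separated by 71 bases, and the 5 of Arl5a by 329 to 680 bases. Not every member was so: the smallest gap was -1 (an overlap) in Abca1 and 17 bases in Cmtm4. Spn had no CPE of either kind, and the single CPE of Eme2 lay 3637 bases before the end of the region.

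Over all 2442 members the median number of CPEs was 3, against 8 in the 2934 long 3′-UTRs with a prediction (2100 genes, median 3046 bases). Only 290 members (11.9%) had no CPE, 416 had 1 and 1736 had 2 or more, and 79.4% held at least 1 canonical CPE. TTTTAT occurred in 70.8% of the members and in 98.3% of the long regions with a prediction. The median smallest gap between CPEs was 170.5 bases in the members and 10 bases in the long regions with a prediction. A canonical CPE lay within 100 bases before any hexamer in 24.7% of the members and in 69.8% of the long regions with a prediction, and a hexamer lay in the last 36 bases of 72.0% and 82.1%. The members were also richer in G and C, with a median GC content of 46.5% against 41.2%, and held a median of 3 copies of the AU-rich pentamer ATTTA against 6. Against GENCODE M21, 2206 of the 2432 members whose transcript was found (90.7%) lay within 1 exon of it, 281 (11.5%) overlapped coding exons of their own gene, and 325 (13.3%) overlapped a gene on the opposite strand. The library kit does not mark strand, so reads of those 325 regions may belong to either gene.

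Depth differed between the libraries, with 467696 to 2492300 reads over regions with a symbol and the fewest in the untreated KO RIP. Cpeb4 itself, whose own 3′-UTR of 4102 bases has a prediction, had 130 and 136 RPM (reads scaled by the sum over regions with a symbol) in the WT Inputs against 52.0 and 52.6 in the KO Inputs. In the RIPs it had 836 and 770 RPM in WT and 257 and 367 in KO, so the KO RIPs too held more of it than their Inputs. The deleted part of the gene is not given in the labels, so reads of this 3′-UTR check the genotype only in part. All 13 macrophage markers were present in the Inputs, with summed levels of 3992 to 4965 RPM, while the 5 of 7 T cell markers in the tables summed to 3.23 to 9.05. Of the other lists the tables hold only 2 of 8 neutrophil, 3 of 5 B cell, 3 of 5 fibroblast and 2 of 4 erythroid markers, which summed to 0.754 at most, so those cell types were checked only in part. Among the markers at 0 in every Input were S100a8, Cd3d, Cd3e, Ms4a1, Pdgfra, Dcn and Hba-a1.

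The members took a smaller part of the RIPs than of the Inputs in both genotypes. They held 16.4% of the reads in the untreated WT RIP, 17.5% in the KO RIP, 19.8% in the WT Input and 19.3% in the KO Input. With LPS the shares were 15.7%, 16.9%, 18.4% and 17.8% in the same order. The long regions with a prediction went the other way, with 31.2% and 27.0% in the untreated WT and KO RIPs against 22.2% and 23.8% in the Inputs. In the shallowest library, the untreated KO RIP, the 95% Wilson interval of the members' share was 17.4% to 17.6%, which is counting error alone.

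Each region was compared between the WT and KO RIPs as a log2 ratio of reads scaled to the sum of its library, with 1 read added on average in proportion to library size. A region was compared where the libraries concerned held at least 20 reads together, which 1379 members reached in the untreated RIPs and 1378 in the LPS RIPs, and it was called higher or lower past a log2 ratio of 1 (2-fold). The median of the members was -0.13 (95% interval over regions -0.17 to -0.09) untreated and -0.08 (-0.14 to -0.04) with LPS. Long regions with a prediction had 0.22 and 0.31. After the WT over KO ratio of the Inputs was taken off, which is called the input-corrected ratio here, the members had -0.09 (-0.13 to -0.04, 1295 regions) untreated and -0.24 (-0.30 to -0.20, 1299 regions) with LPS, and the long regions with a prediction 0.42 and 0.27. The zero of this scale depends on the scaling: with library totals recovered from the deposited RPKM, the 4 medians of the members were 0.69, 1.03, 0.73 and 0.94, since that scaling moves every region up by 0.84, 1.14, 0.83 and 1.20. The counted regions took 49.3% and 70.7% of the library total in the untreated and LPS WT RIPs, 27.5% and 32.1% in the KO RIPs and 46.9% to 51.5% in the Inputs. TMM factors move the 4 ratios up by 0.23, 0.34, 0.21 and 0.36, and median-of-ratios factors by 0.11, 0.16, 0.08 and 0.23. Each of these scalings moves all classes alike, so the distances between classes do not rest on it. The members lay 0.16 and 0.12 below all regions in the untreated and LPS RIPs, and 0.15 and 0.18 below after input correction. All regions together had medians of 0.03, 0.04, 0.07 and -0.05.

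**Figure D1:**
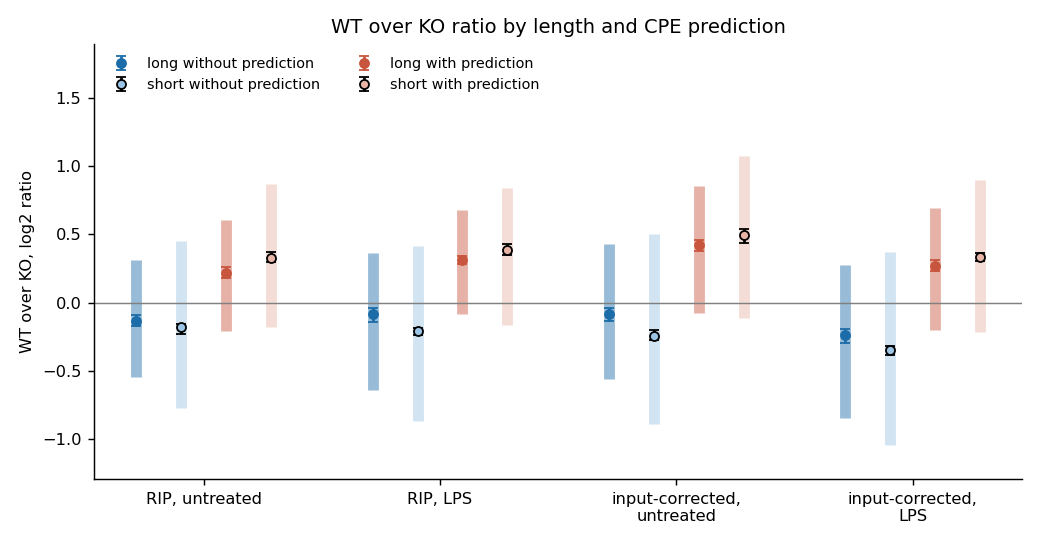
WT over KO log2 ratios of 3′-UTR regions in 4 classes of length (2000 or more bases, or shorter) and prediction, in the RIPs and after input correction, untreated and with LPS. Points are medians with their 95% intervals over regions and bars are the middle 50% of regions; the members (long, no prediction) sit near the short regions without a prediction and 0.35 to 0.51 below the long regions with one.

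Fewer members than regions at large passed the 2-fold line upward. In the untreated RIPs 92 of 1379 members (6.67%) were called higher, where 12.2% of all 11923 regions compared were, and 127 (9.21%) were called lower, where 10.6% of all were. With LPS 82 members (5.95%) were called higher beside 11% of all regions and 200 (14.5%) lower beside 13.9%. By the input-corrected ratio, 112 members (8.65%) were higher untreated beside 16.7% of all regions and 133 (10.3%) lower beside 13.4%. With LPS 67 (5.16%) were higher beside 11.8%, and 256 (19.7%) lower beside 18.3%. The lower shares of the members were thus near the background on either side of it, and the higher shares lay under it in all 4 comparisons. In the RIPs this was not particular to the members. Long regions with a prediction had 9.53% and 10.7% called higher there, also under the background. After input correction they had 19.5% and 12.8%, above it. Scaled to library totals, 32.1%, 51.8%, 34.7% and 45.9% of the members were called higher in the same order of comparisons and 1.31%, 0.726%, 1.0% and 2.39% lower. With TMM factors 10.5%, 12.8%, 13.0% and 12.3% were higher and 4.86%, 6.89%, 6.56% and 10.2% lower, and with median-of-ratios factors 8.19%, 8.64%, 10.3% and 10.2% were higher and 7.03%, 11.1%, 8.19% and 12.8% lower. Shares of all regions were not counted under these scalings. Each scaling moves every region, so these shares of the members cannot be set beside the background given above. The 95% counting interval of a single member's ratio had a median half-width of 0.61 and 0.50 (RIPs) and 0.76 and 0.64 (input-corrected). A single region near the 2-fold line is thus not settled by its own reads. Over all regions the half-width was larger, with 0.78 and 0.68 in the RIPs and 0.95 and 0.84 after input correction. What part this has in the shares called was not tested. Of the 1201 members compared under both treatments, 31 were called higher and 67 lower in both by the input-corrected ratio. Those 31 are 29.8% of the members higher untreated and 48.4% of those higher with LPS, and the 67 are 57.8% and 30.7% of the lower ones. Of all 9448 regions compared under both, 7.08% were higher and 8.03% lower in both, against 2.58% and 5.58% of the members. Over all regions the shared calls were 42.8% and 60.7% of the higher ones and 62.5% and 48.8% of the lower ones.

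With the number of CPEs not held equal, prediction set long regions apart by more than length did. Among long regions, those with a prediction had a median 0.35 and 0.39 above the members in the untreated and LPS RIPs and 0.51 above in both treatments after input correction. Among regions without a prediction, the long ones lay 0.05, 0.13, 0.16 and 0.11 above the short ones in the same 4 comparisons. Among regions with a prediction, the long ones lay 0.11, 0.08, 0.08 and 0.07 below the short ones.

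By width, the members were close to the shorter regions next to them. Input-corrected medians of regions without a prediction, untreated, were -0.48 under 500 bases, -0.17 from 500 to under 1000, -0.13 from 1000 to under 2000, -0.08 from 2000 to under 3000, -0.10 from 3000 to under 5000 and -0.29 from 5000 bases up (61 regions). With LPS they were -0.57, -0.22, -0.26, -0.22, -0.24 and -0.62. The regions with a prediction stayed between 0.23 and 0.54 untreated and between 0.13 and 0.37 with LPS over the same bins. The low values below 500 bases went with a median of 0 CPEs, and the median number was 2 in members under 3000 bases and 5 in those of 5000 or more. At an equal number of CPEs the longer regions without a prediction did not have the higher ratios. With 1 or 2 CPEs and LPS, the median was 0.06 under 500 bases, 0.04, -0.22, -0.47 and then -0.81 at 3000 to under 5000 bases. Without any CPE there was no order by width, with -0.75, -0.61, -0.77, -0.98 and -0.77 in the same bins. With 3 or 4 CPEs and LPS, the medians from 500 bases up were 0.40, 0.28, 0.07, -0.27 and, from 5000 bases, -0.84 (15 regions). Under 500 bases only 7 such regions were compared, with -0.43. Just inside the length limit, the 238 members of 2000 to 2099 bases had input-corrected medians of -0.09 and -0.21, and just outside it the 241 regions of 1900 to under 2000 bases had 0.03 and -0.31. Over the members, the Spearman correlation of the input-corrected ratio with width was -0.03 (1295 regions) untreated and -0.07 (1299 regions) with LPS. These correlations do not hold the number of CPEs equal, and that number rose with width (Spearman 0.26 over all 2442 members).

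**Figure D2:**
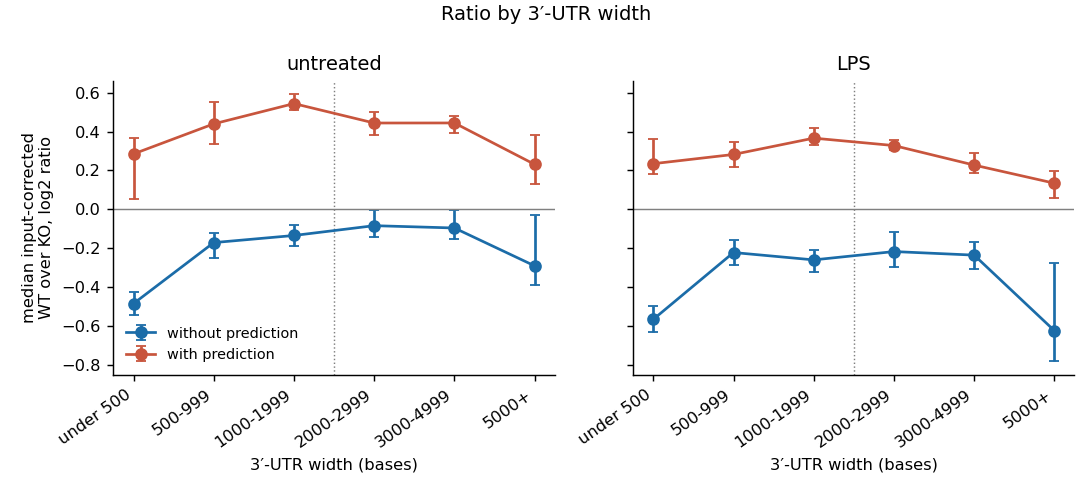
Median input-corrected WT over KO log2 ratio by 3′-UTR width for regions with and without a prediction, untreated and with LPS; bars are 95% intervals over regions. From 500 to under 5000 bases the line without a prediction stays between -0.08 and -0.26 and the line with a prediction between 0.23 and 0.54, and neither line moves far with width. The number of CPEs is not held equal across widths.

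Within the members, the ratio went with the number of CPEs. Untreated, the input-corrected median was -0.57 (95% interval -0.75 to -0.49, 143 regions) in members with no CPE, -0.38 with 1, -0.20 with 2, -0.11 with 3, 0.08 with 4, 0.09 with 5 or 6, 0.18 with 7 to 9 and 0.39 (0.06 to 0.73, 41 regions) with 10 or more. With LPS the medians were -0.92 (-1.04 to -0.65), -0.65, -0.51, -0.21, -0.06, -0.01, 0.31 and 0.38 (0.22 to 0.49). Each step up in CPEs thus had a higher input-corrected median. The first and last intervals were far apart in both treatments, while most neighbouring ones overlapped. None of the 143 members without a CPE was called higher untreated and 28 (19.6%) were called lower, and with LPS 1 of 142 was higher and 68 (47.9%) were lower. Of the members with 10 or more CPEs, 11 of 41 were higher and 1 was lower untreated. Over all regions compared, 16.7% were higher and 13.4% lower untreated, and 11.8% were higher and 18.3% lower with LPS. In the RIPs alone, from no CPE to 10 or more, the medians went from -0.53 to 0.16 untreated and from -0.70 to 0.41 with LPS. There the order broke with LPS, with 0.06 at 3 CPEs and -0.05 at 4. The WT over KO ratio of the Inputs fell over the same strata, from 0.05 to -0.24 untreated and from 0.22 to 0.02 with LPS. It is thus part of the input-corrected rise. Another scaling of the libraries moves all strata alike, so their order does not rest on it. The CPE count at which the median passes 0 and the numbers called do rest on it.

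At an equal number of CPEs, a prediction went with a smaller difference. Weighted over 7 strata of CPE count, the long regions with a prediction lay above the members by 0.19 and 0.11 in the untreated and LPS RIPs and by 0.15 and 0.18 after input correction, where the plain differences were 0.35, 0.39, 0.51 and 0.51. The difference was positive in 6, 5, 5 and 5 of the 7 strata. It was largest at 1 CPE in each comparison, with 0.56, 0.38, 0.48 and 0.59. Only 26 long regions with a prediction had 1 CPE, against 416 members, so that stratum rests on few regions with a prediction. In the other strata the differences ran from -0.07 to 0.35, -0.17 to 0.28, -0.13 to 0.27 and -0.0088 to 0.19. The weighted differences without the stratum of 1 CPE were not computed. With 2 CPEs, for example, the long regions with a prediction had input-corrected medians of -0.33 untreated and -0.51 with LPS, and the members -0.20 and -0.51. With 10 or more they had 0.61 and 0.42, and the members 0.39 and 0.38.

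The place of the CPE showed the same mixture. The 603 members with a canonical CPE within 100 bases before a hexamer had input-corrected medians of 0.07 and 0.05, against -0.06 and -0.21 in the 1335 members whose canonical CPEs all lay elsewhere. They also held more CPEs (median 5 against 3) and less GC (42.3% against 46.4%). At an equal number of canonical CPEs the near-hexamer members had no fixed side. With exactly 1 canonical CPE, the 89 members that had it near a hexamer lay at -0.58 and -0.67 and the 565 others at -0.14 and -0.36. With 2 they had -0.07 and -0.13 against -0.07 and -0.25 in the others, with 3 or 4 they had 0.21 and 0.07 against 0.04 and -0.05, and with 5 or more 0.31 and 0.34 against 0.31 and 0.09. The 504 members without a canonical CPE had -0.49 and -0.79.

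**Figure D3:**
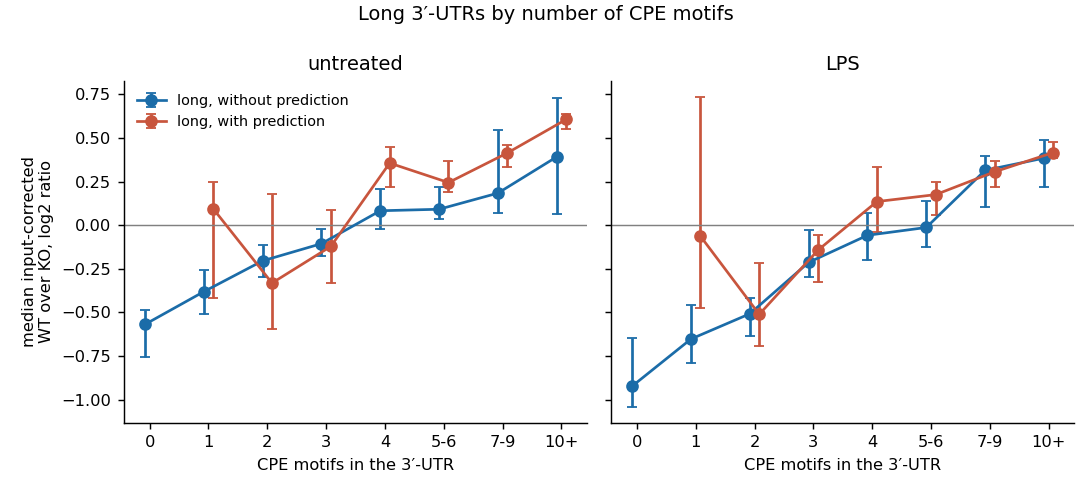
Median input-corrected WT over KO log2 ratio of long 3′-UTRs by their number of CPEs, without (members) and with a prediction, untreated and with LPS; bars are 95% intervals over regions. With libraries scaled to their sums over regions, the members climb from -0.57 to 0.39 untreated and from -0.92 to 0.38 with LPS, and at 2 CPEs they are not below the regions with a prediction.

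Other sequence properties went with the ratio too, and they go with the number of CPEs themselves. The Spearman correlation of the members' input-corrected ratio with the number of CPEs was 0.36 untreated (1295 regions) and 0.42 with LPS (1299 regions). With GC content it was -0.35 and -0.49, and with the number of ATTTA pentamers 0.27 and 0.33. With the CPE letters read backwards (TATTTT and TAATTTT), which keep the base composition but are no CPE, it was 0.41 and 0.48. The points share their libraries and base composition, and the CPE count itself had a correlation of -0.64 with GC content and of 0.63 with the backward letters over all 2442 members. The backward letters were found in 82.9% of the members, and they can overlap with CPEs or with ATTTA. Their median number was 2, against 5 in the long regions with a prediction.

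Cut by GC content, the members with less than 42% GC had input-corrected medians of 0.29 untreated and 0.26 with LPS, those from 42% to 46% had -0.05 and -0.16, those from 46% to 50% had -0.14 and -0.34, and those of 50% or more had -0.45 and -0.82. Inside the last class, members without a CPE had -0.65 and -1.01 and members with 1 or 2 CPEs had -0.38 and -0.84. Members there with 3 or 4 CPEs had -0.04 and -0.34, and the few with 5 or more had -0.02 and -0.54 (13 and 11 regions). Under 42% GC, members with 1 or 2 CPEs had 0.05 and 0.15 (25 and 24 regions), those with 3 or 4 had 0.03 and 0.08, and those with 5 or more had 0.44 and 0.34. Members with 1 or 2 CPEs were lower in each richer GC class, with 0.05, -0.15, -0.33 and -0.38 untreated and 0.15, -0.19, -0.56 and -0.84 with LPS, while members with 3 or 4 CPEs showed no such order untreated (0.03, -0.16, 0.01 and -0.04). Both properties thus went with the ratio at a fixed value of the other, though not in every class. At an equal number of backward letters the CPEs did so in some classes. Among members with 1 or 2 of these, the medians ran from -0.48 and -0.63 without a CPE to 0.04 and -0.17 with 5 or more CPEs. Among members with 3 or 4 of them there was no such order, with -0.06, -0.13, 0.07 and -0.02 untreated and -0.02, -0.33, -0.05 and -0.06 with LPS at 0, 1 or 2, 3 or 4, and 5 or more CPEs. At 1 or 2 CPEs the medians differed by backward letters too, from -0.39 and -0.95 without any to 0.11 and -0.17 with 5 or more. What part base composition has in the ratio was not tested.

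The KO RIP also recovered CPE-rich members over its own Input. KO RIP over Input had a median of -0.65 untreated and -0.69 with LPS in members without a CPE, and of 0.85 and 0.77 in those with 10 or more. WT RIP over Input went from -1.21 and -1.45 to 1.22 and 1.14 over the same strata. The WT span was thus the wider. For each region the input-corrected ratio is WT RIP over Input minus KO RIP over Input. The correlation with GC content was -0.74 and -0.78 for WT RIP over Input and -0.64 and -0.63 for KO RIP over Input, and with the number of CPEs 0.54 and 0.59 in WT and 0.36 and 0.39 in KO. Over all members compared, the median was -0.25 and -0.29 in WT and -0.16 and -0.06 in KO, where the long regions with a prediction had 0.61 and 0.57 in WT and 0.23 and 0.33 in KO.

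**Figure D4:**
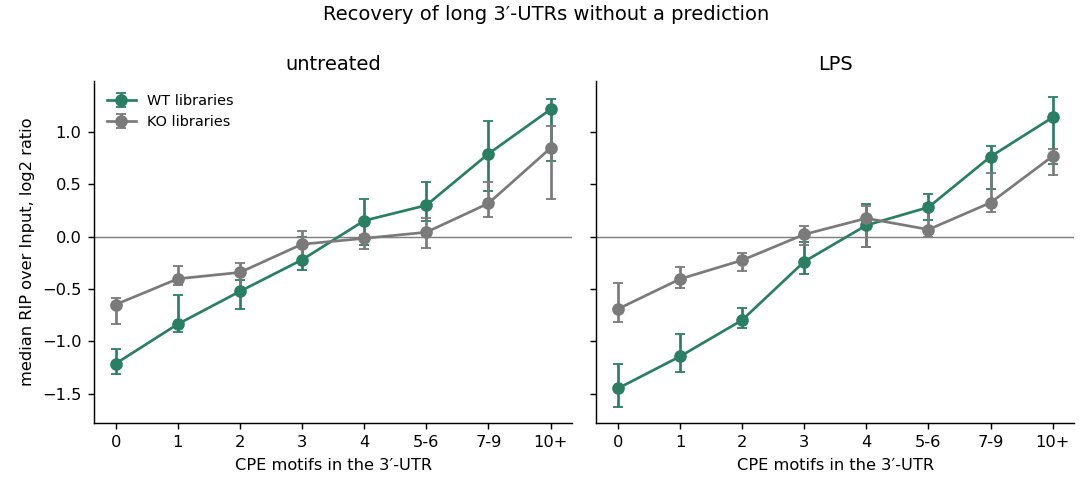
Median RIP over Input log2 ratio of the members by number of CPEs, in WT and KO, untreated and with LPS; bars are 95% intervals over regions. Both genotypes climb with the number of CPEs, WT from -1.21 to 1.22 and KO from -0.65 to 0.85 untreated.

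The deposited peak scores, given for each RIP library, are above 0 where a region met a MACS peak. The ratios do not use them, but both come from reads of the same RIP and Input libraries, so the scores are no separate check. In the untreated WT RIP 156 members (6.39%, 95% Wilson interval 5.48 to 7.43) met a peak, and in the LPS WT RIP 372 did (15.2%, 13.9 to 16.7). In the KO RIPs 14 (0.573%) and 13 (0.532%) did. Over all regions with a symbol the shares were 6.50% and 14.5% in WT and 1.04% and 1.14% in KO, so the members' WT shares were close to those of regions at large. The long regions with a prediction had larger shares, 16.3% and 33.1% in WT and 1.81% and 2.18% in KO. Within the members the WT share went up with CPEs as the ratios did: with LPS it was 2.76% without a CPE, 6.38% with 1 or 2, 18.6% with 3 or 4 and 29.0% with 5 or more. Depth differed in the same direction, with 1665914 and 2492300 reads over regions with a symbol in the WT RIPs and 467696 and 871482 in the KO RIPs, and its part in the number of peaks was not tested.

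Among single members, 1 region per gene was kept and 487 genes had at least 50 reads in every Input and at least 20 in the RIPs of each treatment. By the input-corrected ratio 144 of them were above 0 in both treatments, 254 below 0 in both, and 89 differed in sign. Only 9 were past a log2 ratio of 1 and 20 past -1 in both. Of all 9448 regions compared under both treatments, at a lower read limit, 7.08% were past 1 and 8.03% past -1 in both. These counts hold for libraries scaled to their sums over regions. Library totals move every input-corrected ratio up by 0.83 untreated and 1.20 with LPS. The 7 that ranked highest by the smaller of their 2 ratios were Tob2, Spcs2, Nrp1, Arl5a, Nfya, Brd3 and Abca1, and the 8 lowest Rrp7a, Spn, Eme2, Aars, Vapb, Ucp2, Agtrap and Lman2l. These sets were chosen for their ratios, which are therefore given as a description. The highest had 2 to 6 CPEs (median 4) and a median GC content of 46.2%, and the lowest 0 to 6 CPEs (median 1) and 52.7%.

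Tob2, an adaptor of the CCR4-NOT deadenylase, carried the highest pair of ratios on a region of 2459 bases (chr15:81848270-81850728). Its level, in RPM per kb of region, was 106 in the untreated WT RIP, 59.1 in the KO RIP, 45.5 in the WT Input and 88.9 in the KO Input, and with LPS 53.2, 34.5, 26.8 and 61.4. The input-corrected ratio was 1.81 (95% counting interval 1.32 to 2.30) untreated and 1.81 (1.33 to 2.29) with LPS. A large part came from the Inputs, in which the WT level lay below the KO level (log2 ratio -0.96 and -1.19), while the RIPs alone gave 0.84 and 0.62. The region is not inside 1 exon of its annotated transcript.

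Spcs2 (chr7:99837569-99839696), a subunit of the signal peptidase of the endoplasmic reticulum, had similar Inputs and a RIP that differed. Its level was 120 in the untreated WT RIP, 58.3 in the KO RIP, 78.4 in the WT Input and 87.5 in the KO Input, and with LPS 121, 44.8, 73.3 and 85.1. The WT RIP was above its Input and the KO RIP below, with an input-corrected ratio of 1.20 (0.71 to 1.69) and 1.64 (1.24 to 2.05). It has only 2 CPEs, both canonical, and these are 71 bases apart, beyond the 50 bases that the prediction of a repressed mRNA allows.

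Nrp1 (chr8:128502815-128505462), the co-receptor neuropilin 1 for semaphorins and VEGF, had like ratios in both treatments at very different mRNA levels. Its level was 297 in the untreated WT RIP, 168 in the KO RIP, 141 in the WT Input and 170 in the KO Input, and with LPS 43.9, 17.8, 20.5 and 19.1. The input-corrected ratio was 1.09 (0.81 to 1.38) and 1.19 (0.56 to 1.83). In the Inputs LPS over untreated was -2.76 in WT and -3.14 in KO, which placed it among the 5 lowest members by that ratio as well. Its region, like that of Tob2, is not inside 1 exon of its annotated transcript.

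Brd3 (chr2:27445579-27448464), a BET bromodomain reader of acetylated chromatin, had the highest untreated ratio of the 7, with levels of 77.6 in the WT RIP, 27.4 in the KO RIP, 25 in the WT Input and 31.9 in the KO Input. With LPS the levels were 48.7, 21.5, 27.6 and 25.8, and the ratio was 1.84 (1.19 to 2.49) untreated and 1.08 (0.54 to 1.62) with LPS. Abca1 (chr4:53030787-53033942), the cholesterol efflux transporter, had 90.3, 52.8, 30 and 37.0 untreated and 95.6, 38.5, 33.7 and 34.8 with LPS, for ratios of 1.07 (0.56 to 1.58) and 1.35 (0.93 to 1.77). In both genes the Inputs of the genotypes were close and the RIPs apart. Arl5a (an ARF-like GTPase of the Golgi) and Nfya (a subunit of the CCAAT-binding factor NF-Y) had ratios from 1.09 to 1.35 in either treatment.

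At the other end, Rrp7a (chr15:83113433-83116885), a factor in ribosomal RNA processing, had a level of 7.30 in the untreated WT RIP, 24.1 in the KO RIP, 25.9 in the WT Input and 24.5 in the KO Input. With LPS the levels were 7.67, 38.2, 42.6 and 51.5, and the input-corrected ratio was -1.78 (-2.52 to -1.03) untreated and -2.01 (-2.51 to -1.52) with LPS. The KO RIP thus held Rrp7a near its Input level and the WT RIP well below. Spn (chr7:127133702-127136145), the leukocyte surface sialoprotein CD43, whose 2444 bases hold no CPE, had 8.35, 25.4, 23.8 and 19.7 untreated and 5.75, 12.7, 26.1 and 19.6 with LPS. Its ratio was -1.83 (-2.71 to -0.96) and -1.51 (-2.34 to -0.68), from 34 and 29 reads in the untreated WT and KO RIPs and 35 and 27 in the LPS RIPs, which is what the wide intervals reflect.

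Ucp2 (chr7:100499351-100502020), a mitochondrial carrier, gave the deepest counts of the lowest 8 in the untreated libraries. Its level was 80.5 in the untreated WT RIP, 174 in the KO RIP, 183 in the WT Input and 135 in the KO Input, and with LPS 25.7, 57.6, 79.6 and 71.8, for ratios of -1.55 (-1.85 to -1.24) and -1.3 (-1.69 to -0.91). Agtrap (chr4:148077061-148080482), which binds the angiotensin II receptor, had 15.1, 39.4, 48.4 and 51.8 untreated and 56.6, 138, 229 and 193 with LPS, for -1.28 (-1.83 to -0.72) and -1.53 (-1.75 to -1.31). Each of them has a single CPE. Vapb (chr2:173778222-173784336), a membrane contact protein of the endoplasmic reticulum, is the exception to the low CPE count, with 6 CPEs in 6115 bases and ratios of -1.55 (-1.95 to -1.15) and -1.38 (-1.73 to -1.02). Eme2 (a partner of the nuclease Mus81), Aars (an alanyl-tRNA synthetase) and Lman2l (a cargo lectin of the secretory pathway) had ratios between -1.25 and -1.96. The regions of Rrp7a, Eme2, Ucp2 and Lman2l overlap a gene on the opposite strand, and those of Eme2 and Aars another gene on the same strand.

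**Figure D5:**
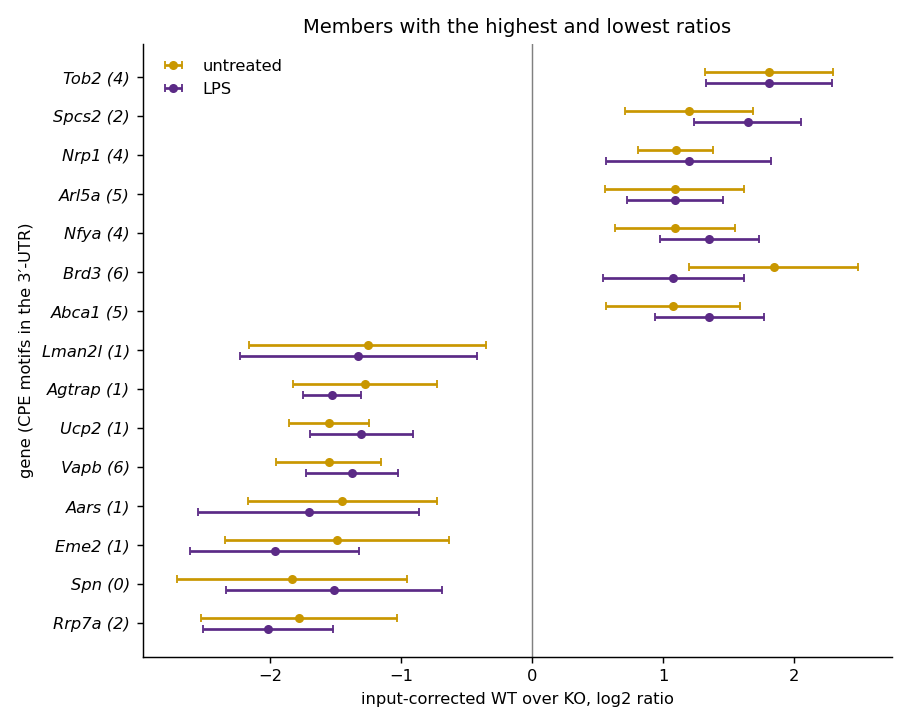
Input-corrected WT over KO log2 ratio of the 7 highest and 8 lowest members, untreated and with LPS, with 95% counting intervals. The highest lie from 1.07 to 1.84 and the lowest from -2.01 to -1.25, which is how they were ranked.

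None of the 6 longest members with enough reads was among the 7 highest or 8 lowest. These 6 ran from 6765 to 10476 bases and had input-corrected ratios of -0.50 to 0.32 untreated and -1.03 to 0.11 with LPS. As a class, however, the members of 5000 bases or more had the lowest LPS median of the width bins (-0.62, 61 regions). Vapb, with 6115 bases, was among the 8 lowest. Ubn2 (chr6:38502288-38512763), a ubinuclein of the HIRA histone chaperone complex, is the longest and holds 22 CPEs. Its reads were 311 in the untreated WT RIP, 118 in the KO RIP, 53 in the WT Input and 128 in the KO Input, and with LPS 339, 118, 135 and 85. The ratios were 0.32 (-0.23 to 0.87) and -0.32 (-0.81 to 0.17), of opposite sign with intervals that hold 0. Fmn1, a formin that assembles actin, has 14 CPEs in 7307 bases and had -0.28 and -0.23, with intervals that hold 0 too. Cmtm4, a MARVEL-domain membrane protein, had 0.01 and 0.11. Abl2 (a tyrosine kinase), Trim56 (a ubiquitin ligase of antiviral signalling) and Cds2 (a synthase of CDP-diacylglycerol) had values of -0.40 to -0.50 untreated and -0.84 to -1.03 with LPS.

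Nor did the most abundant members rank high. Sirpa (chr2:129630185-129632228), the inhibitory receptor for CD47, had the most reads, 3927 in the untreated WT RIP, 1155 in the KO RIP, 2429 in the WT Input and 2853 in the KO Input, and with LPS 3005, 975, 2586 and 2055. Its single CPE went with ratios of -0.35 (-0.47 to -0.23) and 0.11 (-0.02 to 0.25). Sdc3, the proteoglycan syndecan 3, without a CPE, had -0.87 (-1.07 to -0.67) and -0.91 (-1.04 to -0.78), and its region overlaps a gene on the opposite strand. Npc2, the lysosomal cholesterol carrier, had -1.35 (-1.53 to -1.18) and -0.94 (-1.10 to -0.79). The intervals of Sdc3 and Npc2 were narrow and below 0 with libraries scaled to their sums over regions, and they cover counting error only. Library totals move every input-corrected ratio up by 0.83 untreated and 1.20 with LPS, so the side of 0 is not settled for each of these values. Ywhag, the gamma form of the 14-3-3 adaptors, had -0.70 and -0.67. Clic4, an intracellular chloride channel protein, had -0.05 and -0.27, and Slc6a6, the taurine transporter, -0.11 and 0.41.

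In the Inputs more members were lower than higher with LPS. In a bulk culture fewer cells of a type and less RNA per cell cannot be told apart. WT Input, LPS over untreated, had a median of -0.16 over 1393 members, with 186 (13.4%) called higher beside 16% of all regions and 282 (20.2%) lower beside 14.2%. In the KO Inputs the median was -0.36 over 1395 members, with 146 (10.5%) higher beside 13.7% and 384 (27.5%) lower beside 19.2%. Long regions with a prediction had -0.14 and -0.41, short regions without one 0.02 and -0.02, and short regions with one 0.04 and -0.11, so the long regions of either kind were the lower. Over the members the Spearman correlation of this ratio with the number of CPEs was 0.09 in WT and 0.07 in KO. The WT over KO ratio of the Inputs had medians of -0.02 untreated and 0.10 with LPS.

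Ranked by the smaller of its ratios in the 2 genotypes, the highest LPS over untreated ratio was that of Rsad2, the antiviral protein viperin (chr12:26442753-26445570). Its Input level was 46.2 in WT and 51.1 in KO untreated and 559 and 578 with LPS, and its RIP level 63.9 and 53.1 untreated and 695 and 853 with LPS. The log2 ratio of LPS over untreated in the Inputs was 3.59 and 3.49, and the RIP levels were higher with LPS in both genotypes, while the input-corrected ratio was 0.41 (-0.09 to 0.91) and -0.25 (-0.35 to -0.14). The gene 1600014C10Rik had 3.12 and 3.61, Fam102b 2.79 and 2.58, Orai2 (a calcium channel subunit) 2.45 and 2.49, and Plek (pleckstrin, a substrate of protein kinase C) 2.34 and 2.48. Their input-corrected ratios lay between -0.35 and 0.44, also that of Fam102b with its 15 CPEs. The lowest by the same rank was that of Pdxk, the kinase of vitamin B6 (chr10:78436744-78440800), with Input levels of 401 in WT and 420 in KO untreated against 46.5 and 34.5 with LPS (log2 -3.10 and -3.60). Nrp1 was next. The gene 2900026A02Rik had -2.38 and -2.5, Pcyt1a (an enzyme of phosphatidylcholine synthesis) -2.36 and -2.53, and Mbp (myelin basic protein) -2.33 and -2.35. Apart from Nrp1, their input-corrected ratios lay between -0.47 and 0.15.

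A 3′-UTR of this kind was found in 1780 of the 14925 genes, and the lists are counted beside that share with no test of a difference. None of the 33 cytokines and chemokines listed had one, 2 of 26 genes of TLR4 and NF-kB signalling did, 2 of 21 of the MAPK cascade, 4 of 35 negative feedback regulators, 3 of 36 in mRNA decay and 3′-UTR binding, 5 of 30 chromatin regulators, 6 of 30 of the endosome and lysosome, 5 of 27 in lipid and glucose metabolism, and 1 of 27 in adhesion, integrins and cytoskeleton. Input-corrected medians of the lists with 3 or more regions compared in both treatments were 0.95 and 0.83 for mRNA decay, 0.04 and 0.18 for chromatin regulators, -0.12 and -0.09 for endosome and lysosome, and 0.08 and -0.03 for metabolism, beside 0.07 and -0.05 over all regions. In these 4 lists Tob2, Brd3 and Abca1 were called higher in both treatments, Hk2 was called higher untreated and Npc2 lower untreated, and no other gene passed the 2-fold line.

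In TLR4 signalling, the ubiquitin ligases Traf6 and Traf3 had -0.15 and -0.02 untreated and -0.25 and -0.65 with LPS. In the MAPK cascade, the p38 kinase Mapk14 with 1 CPE had -0.63 and -0.65 and the S6 kinase Rps6ka3 with 9 CPEs had 0.57 and 0.88. Il10ra, the receptor chain for the anti-inflammatory IL-10, had 2 CPEs and ratios of -0.90 (-1.26 to -0.55) and -1.03 (-1.32 to -0.75), so it was called lower with LPS. Of the other feedback regulators, the MAPK phosphatase Dusp16 had log2 ratios of 3.26 and 3.05 with LPS over untreated in the Inputs and input-corrected ratios of -0.92 and -0.39, and Cish, with 31 and 7 reads in the LPS Inputs of WT and KO, had -1.08 with LPS. Socs2 had 0 reads in every Input.

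Pum2 (chr12:8749721-8752581), a Pumilio repressor that binds 3′-UTRs itself, had 9 CPEs in 2861 bases with a GC content of 35.4%. Its level was 178 in the untreated WT RIP, 108 in the KO RIP, 41.4 in the WT Input and 48.5 in the KO Input, and with LPS 145, 90.2, 33.3 and 37.0. Its ratios were 0.95 (0.53 to 1.38) and 0.83 (0.46 to 1.20), and the KO RIP stood above its Input as well. The region overlaps one of the same gene that has a prediction, as do 113 members in all (4.63%). Those 113 had input-corrected medians of 0.14 and 0.09, against -0.11 and -0.26 in the other 2329.

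Hk2 (chr6:82725025-82727309), the hexokinase induced in activated macrophages, had a level of 62 in the untreated WT RIP, 29.9 in the KO RIP, 40.0 in the WT Input and 38.9 in the KO Input. With LPS these were 270, 164, 182 and 178, for log2 ratios of LPS over untreated in the Inputs of 2.17 and 2.19 and input-corrected ratios of 1.0 (0.34 to 1.67) and 0.69 (0.46 to 0.92). The nuclear receptor Rxra had -0.17 and -0.34 and the kinase Pdk1 -0.12 and -0.03. Among chromatin regulators, the DNA methyltransferase Dnmt3a had -0.81 and -0.91 and Input ratios of -1.61 and -1.94 with LPS over untreated, the histone demethylase Kdm2a had 0.65 and 0.18, and the SWI/SNF subunit Smarcc1 -0.46 and 0.10. The endosomal GTPases Rab5b and Rab11b had -0.12 and -0.44 untreated and -0.24 and -0.09 with LPS, and the autophagy scaffold Wdfy3 0.30 and -0.03. Rac2, the GTPase of the phagocyte oxidase, had -0.23 and -0.21.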

How the data were processed

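RIP and Input RNA of WT and KO BMDMs was sequenced as single-end reads. Per the labels and the study's methods, the authors aligned reads to mm10 with Bowtie2 2.2.2, removed duplicates, called peaks with MACS 1.4.2 and counted reads over 3′-UTR regions of Ensembl. The 4 deposited tables hold, per region, raw read counts, RPKM values that the authors computed from these counts and each library's total, and a peak score from MACS that is 0 where no peak was met. Columns with the authors' own fold changes and p-values were not used. The authors counted motifs in the region's sequence and derived the prediction from their spacing. Deposited motif counts equalled those found in the mm10 sequence for all 31117 regions. Duplicates were removed without molecular identifiers in the libraries, so intervals cover counting error only.

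Rows without a symbol (495 regions, 0.902% to 1.04% of the reads) were left out. Here counts were divided by each library's sum over the remaining regions, 1 read was added on average in proportion to that sum, and log2 ratios were formed with normal 95% intervals from the counts (Python 3.11.15, numpy 2.4.6, pandas 2.3.3, scipy 1.17.1). A ratio was used where its libraries held at least 20 reads (input-corrected: 20 in the RIPs and 20 in the Inputs), and called past a log2 value of 1. Medians carry order-statistic 95% intervals over regions. The scripts were tested on simulated data. With 1 library per group no test was made. Alternative scalings were the library totals implied by the deposited RPKM, TMM factors (edgeR 4.0.16 in R 4.3.3) and median-of-ratios factors.

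Single members were named by rule, among those with at least 50 reads in each Input and at least 20 in the RIPs of each treatment, with 1 region per gene: the 8 highest (7 are reported here) and 8 lowest by input-corrected ratio of 1 sign in both treatments, the 6 longest, the 6 with the highest WT Input level per kb, the 5 highest and 5 lowest by LPS over untreated in both Inputs, and up to 4 per gene list with the most reads. The members, gene lists and rules were chosen with earlier results of these data known. A member and a marker gene are not reported here. Other feedback regulators, Cpeb4 and the markers are named outside this rule.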

Additional observations from a re-analysis of the deposited data

How the results depend on the processing

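No paired analysis was possible because each group has 1 library, and for the same reason no replicate could be left out. The order below is WT over KO in the untreated and LPS RIPs, then input-corrected untreated and LPS. Scaling decided the sign of the members' medians. With library totals they were 0.69, 1.03, 0.73 and 0.94, with 32.1%, 51.8%, 34.7% and 45.9% called higher and 1.31%, 0.726%, 1.0% and 2.39% lower. With TMM they were 0.095, 0.25, 0.11 and 0.12, with 10.5%, 12.8% and, with LPS after input correction, 12.3% higher, and 4.86%, 6.89%, 6.56% and 10.2% lower. With median-of-ratios factors they were -0.030, 0.075, -0.013 and -0.0076, and after input correction with LPS 10.2% were higher and 12.8% lower. Shares of all regions were not counted under these scalings, so the members' shares have no background beside them here. RIP over Input (WT untreated, WT LPS, KO untreated, KO LPS) had medians of -0.19, 0.21, -0.92 and -0.74 with library totals and of -0.18, 0.0080, -0.29 and -0.12 with TMM. The WT over KO Input medians were 0.0022 untreated and 0.083 with LPS with TMM, and 0.048 with LPS with library totals. LPS over untreated in the WT and KO Inputs was -0.012 and -0.17 with TMM and -0.088 and -0.23 with library totals.

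With 1 read added to every library the untreated medians were -0.17 and, input-corrected, -0.13. A minimum of 10 reads gave -0.021 for KO RIP over Input with LPS. A minimum of 50 reads gave -0.085 and -0.035 in the RIPs, -0.17 after input correction with LPS, 9.22% lower in the LPS RIPs, -0.24 and -0.16 for KO RIP over Input, and -0.29 for LPS over untreated in the KO Input. A call at 0.5 gave 18.1%, 19%, 22.2% and 16.7% higher and 27.8%, 29.97%, 27.6% and 38.0% lower, and a call at 1.5 gave 1.96%, 1.96%, 2.86% and 1.23% higher and 2.97%, 4.50%, 2.86% and 8.08% lower. Shares of all regions at these cutoffs were not counted. With a width of 1000 or more the difference between long regions with and without a prediction was 0.42, 0.48, 0.58 and 0.57. Over all alternatives that difference stayed between 0.30 and 0.42, 0.36 and 0.48, 0.48 and 0.58, and 0.46 and 0.57. The input-corrected ratios of the 7 highest and 8 lowest named members kept their sign with 1 read added to every library, with fewer reads added and with each of the other scalings. Of the values so obtained, 120 lay inside the counting interval of the reported ratio and 30 outside it. Library totals move all of these ratios up by 0.83 untreated and 1.20 with LPS. With LPS, the upper interval limits of Spn, Aars, Vapb, Ucp2 and Lman2l lie nearer to 0 than that shift, so their intervals then hold 0. Those of Rrp7a, Eme2 and Agtrap do not. The named members were ranked for their ratios, so a kept sign is no separate check. The cause of these shifts was not tested beyond the scaling itself, which moves all regions alike. Depth limits single regions, since the untreated KO RIP held a median of 8 reads per member.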
